A study of Mus musculus with 12 samples.

Results

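The genes described here are 10 transcripts of the epithelial cell surface and its control: the transcription factor Grhl2, the splicing regulator Esrp1, and 8 genes of cell-cell junctions, Cdh1, Epcam, Dsp, Cldn3, Cldn4, Cldn6, Cldn7 and Ocln. They were chosen by name, as the transcript clusters that the platform annotation maps to these symbols, and make up 10 of the 22180 genes that could be named in the deposited table. All 10 were measured, each by a cluster of its own, and none was lost to a filter on low values, since no such filter was applied. Cdh1 had 2 clusters, and the brighter one stands for the gene unless said otherwise.

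The study profiled E14 cells, a mouse embryonic stem (ES) cell line, on Affymetrix whole-transcript arrays. The 4 groups of 3 arrays were cells transduced with a short hairpin RNA against LOXL2 (shLOXL2) and treated with RA (day 1), shLOXL2 cells without RA at day 0, cells transduced with a control short hairpin RNA (shCT) and treated with RA (day 1), and shCT cells without RA at day 0. All 4 groups therefore share the parent line and a transduction, and the sequence of each hairpin was not given in the sources used here. RA is read as retinoic acid, which the labels abbreviate. There was no group kept to day 1 without RA, so RA and a day of culture cannot be told apart, and "with RA" below covers both. Whether the 3 arrays of a group stand for 3 cultures is not in the labels, and every p-value therefore rests on a spread that may be technical.

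Epithelial cells are held together by adherens junctions, built on E-cadherin, by desmosomes, which anchor keratin filaments, and by tight junctions, in which claudins and occludin seal the space between cells. Grainyhead-like 2, the product of Grhl2, is a transcription factor that binds promoters and enhancers of junction genes, among them Cdh1, claudins and Ocln, and ESRP1 is an RNA-binding protein that sets epithelial patterns of exon use. Mouse ES cells grow as compact colonies joined by E-cadherin, and retinoic acid is a standard agent for driving them out of the undifferentiated state.

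Values are log2 signals, and a difference of 1 is a change by a factor of 2 in signal. The array medians lay between 4.58 and 4.68, and pairs of arrays correlated at r of 0.939 to 0.985, both over all 41345 clusters. Of 5 ES cell markers, Nanog, Zfp42 and Sox2 averaged 9.76, 10.43 and 10.17, far above the array medians. The clusters for Loxl2 also match the predicted gene Gm21451. The signal of one averaged 60.0% of that in shCT cells (exact permutation p = 0.005) and that of the other 65.0% (exact permutation p = 0.03), over both RA states. The constructs did not overlap in the first cluster in either RA state. In the second they overlapped without RA, at 4.58, 4.69 and 5.03 in shLOXL2 cells against 4.92, 4.58 and 5.27 in shCT cells. With RA the second cluster read 5.06, 4.69 and 4.64 in shLOXL2 cells, against 5.77, 5.60 and 6.27 in shCT cells. In replicate 3 of shCT with RA, 7 of the 10 genes had the highest value of their group, and values without it are given for Esrp1, Epcam, Dsp, Cldn4, Cldn6 and Ocln.

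With RA, both regulators fell, while the junction genes split. On average over the 2 constructs Epcam, Cldn4 and Cldn6 fell, Dsp rose, and Cdh1, Cldn3, Cldn7 and Ocln did not pass the test. Cldn7 and Ocln passed with a random replicate block and with a block within each construct, the latter chosen after seeing the data. Neither passed with the fixed replicate block over all arrays. Passing means an adjusted p under 0.05 in limma, with one fit over all 12 arrays and Benjamini-Hochberg adjustment over all 22180 genes. On that average 1 of the 10 genes rose, against 5.52% of all genes, and 5 fell, against 4.8% of all genes. In shLOXL2 cells alone 1 rose and 2 fell, where 2.05% and 1.41% of all genes rose and fell. In shCT cells alone 1 rose and 4 fell, where the shares of all genes were 2.16% and 2.09%. All of the 10 genes but Cldn7 were brighter than the median gene. In a fit of the 11090 brighter genes alone the rises and falls among the 10 were the same. There 10.5% of genes rose and 10.8% fell on average. The shares were 4.23% and 3.47% in shLOXL2 cells, and 4.68% and 5.54% in shCT cells. The median change of the 10 genes on average was -0.37, that of the 8 junction genes -0.23 and that of all genes -0.01. With each array centred on its median, the median gene changed by -0.10 in shCT cells, and this turned the split of calls on average into 874 rises and 1779 falls, against 1224 and 1065 as deposited, with 1 rise and 6 falls among the 10 genes. These are extracts of whole cultures, so fewer cells that express a gene and less of its RNA per cell cannot be told apart.

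**Figure D1:**
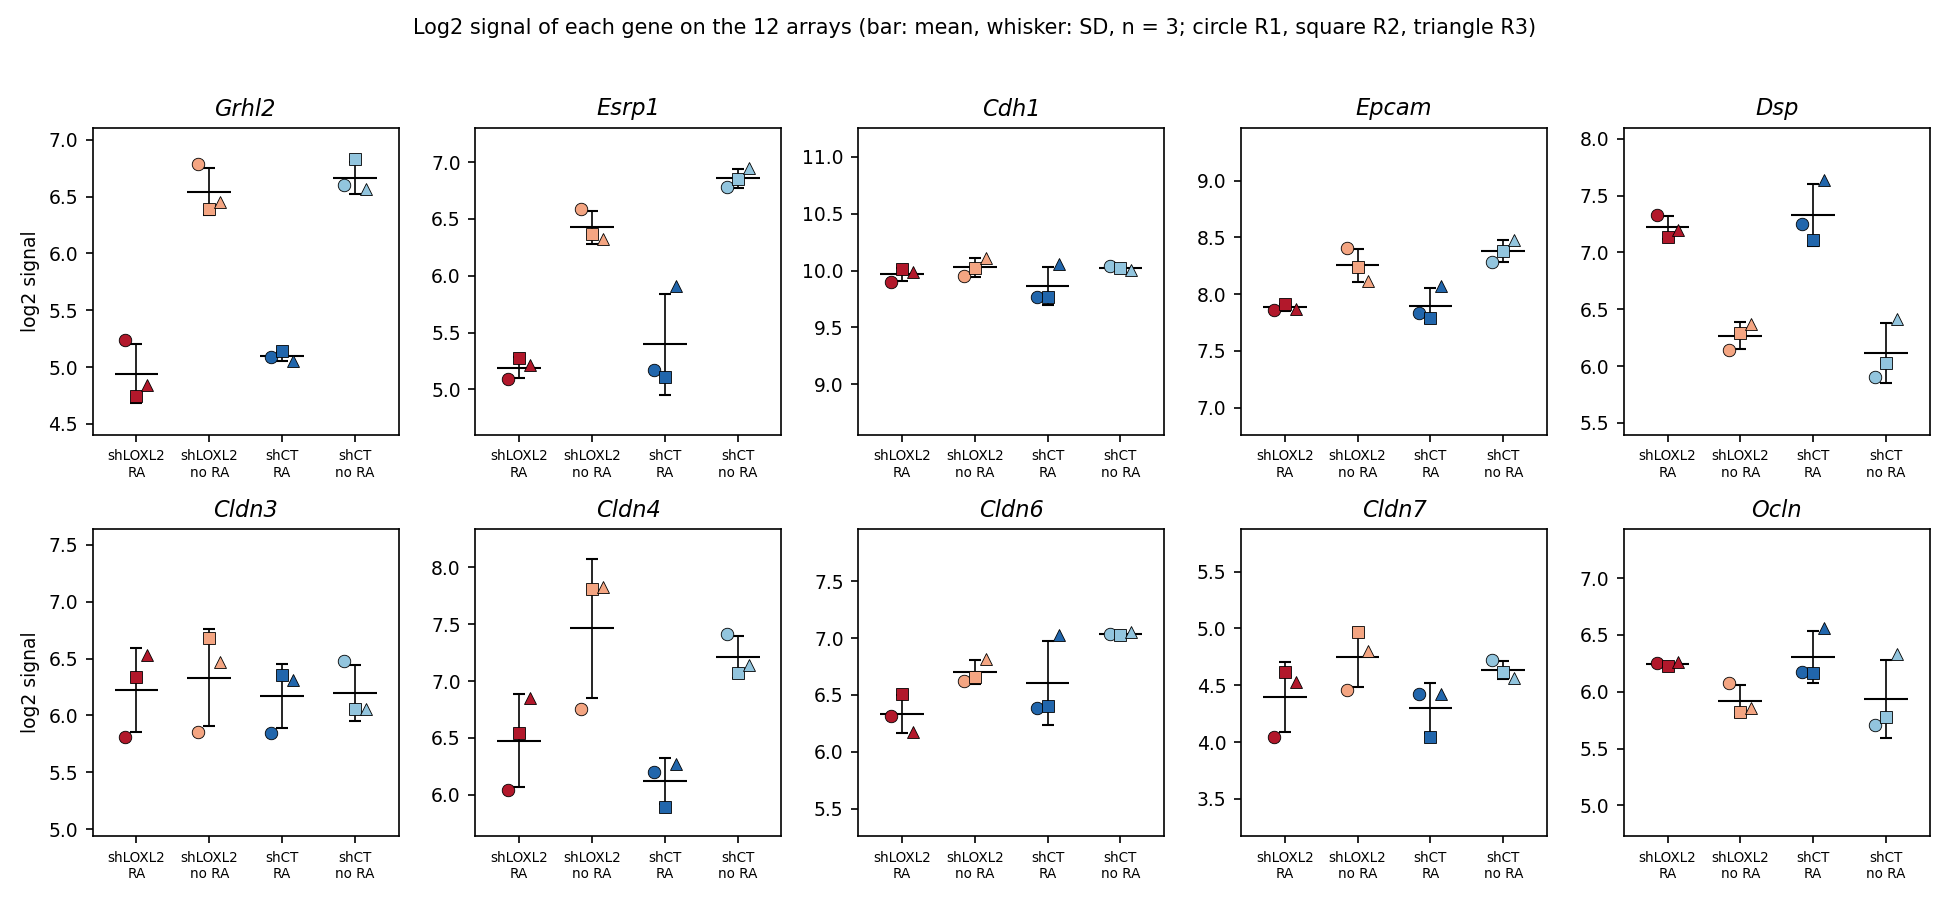
Log2 signal of each of the 10 genes on every array (vertical axis), by group from left to right: shLOXL2 with RA, shLOXL2 without RA, shCT with RA and shCT without RA; points are arrays, bars are group means and whiskers are SD (n = 3). Grhl2 and Esrp1 are lower and Dsp is higher in every array with RA than in any array without RA, whereas the Cdh1 points lie between 9.77 and 10.11 in all groups.

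Grhl2 showed the largest fall of the 10 genes in both constructs. Its signal was 5.24, 4.75 and 4.84 in shLOXL2 cells with RA, against 6.79, 6.40 and 6.45 in shLOXL2 cells without RA. In shCT cells it was 5.09, 5.14 and 5.06 with RA, against 6.60, 6.83 and 6.57 without RA. Every array with RA lay below every array without RA, and the arrays of the 2 constructs were intermixed within each RA state. The change was -1.60 ± 0.15 in shLOXL2 cells (SE, n = 3 arrays per group; limma adjusted p = 4.502e-05) and -1.57 ± 0.15 in shCT cells (limma adjusted p = 4.23e-05). Averaged over constructs it was -1.59 ± 0.11, a signal 0.333 times that without RA, and an exact permutation of RA labels within constructs gave p = 0.005, the smallest that its 400 relabellings allow.

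Esrp1 fell nearly as far. Its signal was 5.09, 5.27 and 5.21 in shLOXL2 cells with RA, against 6.59, 6.37 and 6.32 in shLOXL2 cells without RA. In shCT cells the values were 5.17, 5.11 and 5.91 with RA, against 6.78, 6.85 and 6.95 without RA. The groups did not overlap, but replicate 3 of shCT with RA stood apart above the other 2 arrays of its group. The change was -1.23 ± 0.18 in shLOXL2 cells (SE; limma adjusted p = 0.001568) and -1.46 ± 0.18 in shCT cells (limma adjusted p = 0.0003538). On average it was -1.35 ± 0.13 (limma adjusted p = 1.389e-05; exact permutation p = 0.005), or 0.393 times the signal without RA. Without that replicate the change was -1.72 ± 0.14 in shCT cells and -1.48 ± 0.09 on average.

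With RA the signals of both regulators came within 1 log2 unit of the array medians, apart from that one Esrp1 array. No background level was set for these arrays, so where part of such a signal is background the true fall is larger than the one printed. The fall of Grhl2 and that of Esrp1 did not differ beyond the spread between arrays, at -0.24 for Grhl2 minus Esrp1 (exact permutation p = 0.2).

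**Figure D2:**
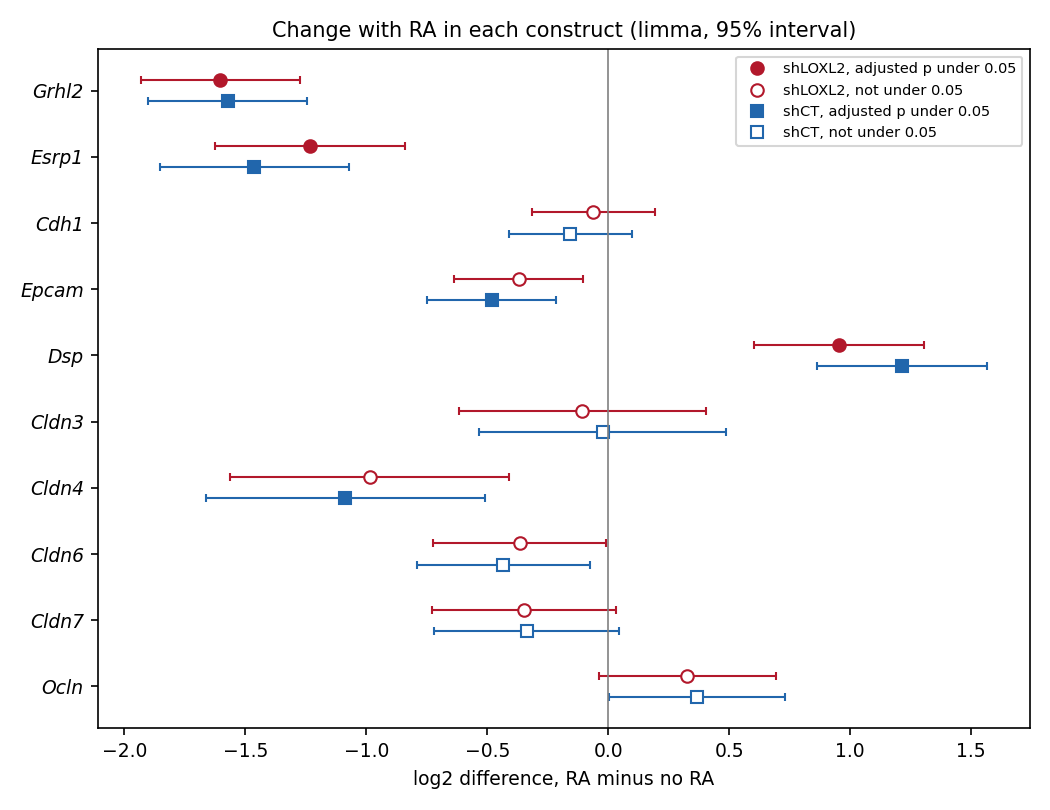
Change with RA (log2, horizontal axis) of each of the 10 genes in shLOXL2 and in shCT cells, with 95% intervals from the limma fit. Grhl2, Esrp1 and Cldn4 have estimates near or below -1 and Dsp is the one gene with both estimates near 1. The intervals of Cdh1, Cldn3 and Cldn7 span 0 in both constructs.

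Cdh1 encodes E-cadherin, the adhesion receptor of the adherens junction, and differed little between groups. It read 9.90, 10.02 and 9.98 in shLOXL2 cells with RA, against 9.95, 10.02 and 10.11 in shLOXL2 cells without RA. In shCT cells it read 9.77, 9.77 and 10.06 with RA, against 10.04, 10.02 and 10.01 without RA. The groups overlapped in both constructs. The average change was -0.11 ± 0.08, with a 95% interval of -0.29 to 0.07 (limma adjusted p = 0.5), an interval that leaves out a fall of the size seen in Grhl2 or Esrp1. The second Cdh1 cluster was dimmer, at a mean of 6.56, and its changes of 0.14 ± 0.18 in shLOXL2 cells and -0.37 ± 0.18 in shCT cells did not pass either (limma adjusted p = 0.818 and 0.353 over all 23521 clusters with 1 gene).

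Epcam, a surface glycoprotein of epithelial and ES cells that stabilises claudins, fell by a modest amount. Signals were 7.86, 7.91 and 7.87 in shLOXL2 cells with RA, against 8.41, 8.23 and 8.12 in shLOXL2 cells without RA. The shCT arrays gave 7.83, 7.79 and 8.07 with RA, against 8.29, 8.38 and 8.48 without RA. The arrays with and without RA did not overlap in either construct. On average the change was -0.43 ± 0.09 (SE; limma adjusted p = 0.006408; exact permutation p = 0.005), or 0.744 times the signal without RA. Within constructs it was -0.37 ± 0.12 in shLOXL2 cells, which did not pass (limma adjusted p = 0.1496), and -0.48 ± 0.12 in shCT cells (limma adjusted p = 0.0449). That call in shCT cells held in 2 of the 12 fits that left out 1 array, with adjusted p between 0.03726 and 0.1725, whereas the average over constructs passed in all 12. In shCT cells it was -0.57 ± 0.13 when replicate 3 with RA was left out.

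Dsp encodes desmoplakin, which links desmosomes to keratin filaments, and moved opposite to the regulators. It had signals of 7.33, 7.13 and 7.20 in shLOXL2 cells with RA, against 6.14, 6.29 and 6.37 in shLOXL2 cells without RA. The values were 7.25, 7.11 and 7.64 in shCT cells with RA, against 5.91, 6.03 and 6.41 in shCT cells without RA. All 6 arrays with RA exceeded all 6 arrays without it. The rise was 0.95 ± 0.16 in shLOXL2 cells (SE; limma adjusted p = 0.004412) and 1.22 ± 0.16 in shCT cells (limma adjusted p = 0.0006231). In shCT cells it was 1.06 ± 0.16 without replicate 3 with RA. Averaged over constructs it was 1.08 ± 0.12 (limma adjusted p = 3.758e-05; exact permutation p = 0.005), or 2.12 times the signal without RA.

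Among the tight junction genes, Cldn4, a sealing claudin, had the largest change. Its signals were 6.04, 6.54 and 6.85 in shLOXL2 cells with RA, against 6.75, 7.81 and 7.83 in shLOXL2 cells without RA. In shCT cells they were 6.20, 5.89 and 6.27 with RA, against 7.42, 7.07 and 7.14 without RA. The shCT groups did not overlap, while in shLOXL2 cells replicate 1 without RA lay below replicate 3 with RA. The average change was -1.04 ± 0.19 (SE; limma adjusted p = 0.002869; exact permutation p = 0.01), or 0.488 times the signal without RA.

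The Cldn4 change was -1.09 ± 0.27 in shCT cells (SE; limma adjusted p = 0.03589), a call kept in 5 of the 12 fits without 1 array and lost without replicate 3 of shCT with RA (-1.16 ± 0.31, limma adjusted p = 0.07626). In shLOXL2 cells it was -0.99 ± 0.27 and did not pass (limma adjusted p = 0.06517). Leaving out replicate 1 of the shLOXL2 arrays without RA gave -1.34, which passed (limma adjusted p = 0.00407). Same-numbered shLOXL2 arrays deviated together, but so did some unlike-numbered ones, so whether the numbers mark pairs is not settled. With construct and replicate number as a random block, Cldn4 and Epcam both passed in shLOXL2 cells (limma adjusted p = 0.007658 and 0.0443). The count there was then 1 rise and 4 falls, where 4.36% of all genes rose and 3.19% fell under that block. With a fixed block within each construct Cldn4 passed (limma adjusted p = 0.001694) and Epcam did not, for 1 rise and 3 falls.

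Cldn3, another sealing claudin and the immediate neighbour of Cldn4 on chromosome 5 in RefSeq, did not follow it. Its signals were 5.81, 6.33 and 6.53 in shLOXL2 cells with RA, against 5.85, 6.68 and 6.47 in shLOXL2 cells without RA. In shCT cells they were 5.85, 6.36 and 6.31 with RA, against 6.48, 6.05 and 6.05 without RA. The groups overlapped throughout, and the average change was -0.07 ± 0.17 with a 95% interval of -0.43 to 0.30 (limma adjusted p = 0.873). Array by array, the Cldn4 change with RA minus that of Cldn3 was -0.97 (exact permutation p = 0.005, and 0.006 after Benjamini-Hochberg adjustment over 18 such gene pairs).

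Cldn6, a claudin of early embryonic epithelia, had signals of 6.32, 6.51 and 6.17 in shLOXL2 cells with RA, against 6.62, 6.66 and 6.82 in shLOXL2 cells without RA. In shCT cells they were 6.38, 6.40 and 7.03 with RA, against 7.03, 7.03 and 7.05 without RA. Replicate 3 of shCT with RA thus stood level with the arrays without RA. Cldn6 passed on average, at -0.40 ± 0.12 (SE; limma adjusted p = 0.0448; exact permutation p = 0.005), but in only 2 of the 12 fits without 1 array. It passed in neither construct alone, although the change in shCT cells was -0.65 and passed without replicate 3 of shCT with RA (limma adjusted p = 0.02847). The average without that array was -0.51 ± 0.09 (limma adjusted p = 0.004575).

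Cldn7 encodes a claudin that binds EPCAM, and its cluster gave low signals. It had 4.05, 4.62 and 4.53 in shLOXL2 cells with RA, against 4.46, 4.97 and 4.80 in shLOXL2 cells without RA, and these groups overlapped. In shCT cells it had 4.43, 4.04 and 4.42 with RA, against 4.72, 4.62 and 4.57 without RA, with no overlap. These signals lie at the array medians, and the average change of -0.34 ± 0.13 did not pass (limma adjusted p = 0.111; exact permutation p = 0.025). It passed with construct and replicate number as a random block (limma adjusted p = 0.02622), with a fixed block within each construct (0.01774), with arrays centred on their medians (-0.42, limma adjusted p = 0.03825) and without replicate 1 of shLOXL2 without RA (-0.41, limma adjusted p = 0.04802). That last fit was the 1 of the 12 without 1 array in which Cldn7 passed, and the limma adjusted p of the others reached 0.2536.

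Ocln encodes occludin, a 4-pass membrane protein of the tight junction strand. Its signals were 6.25, 6.22 and 6.26 in shLOXL2 cells with RA, against 6.08, 5.82 and 5.85 in shLOXL2 cells without RA, which did not overlap. In shCT cells they were 6.18, 6.17 and 6.56 with RA, against 5.71, 5.77 and 6.33 without RA, which did. The average change of 0.35 ± 0.12 had the sign of the Dsp rise and did not pass (limma adjusted p = 0.0904; exact permutation p = 0.025). It passed with the random block (limma adjusted p = 0.01904), with the block within each construct (0.01323) and without replicate 3 of shCT without RA (0.45, limma adjusted p = 0.01302). That last fit was the 1 of the 12 without 1 array in which Ocln passed. Without replicate 3 of shCT with RA the average was 0.28 ± 0.12 (limma adjusted p = 0.2136) and the change in shCT cells 0.24 ± 0.18 (limma adjusted p = 0.6488).

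Grhl2 and Esrp1 were then set against each junction gene directly, through the difference of log2 signals on each array. A change in such a difference compares how far 2 clusters moved, and says nothing of how abundant one transcript is relative to another. With RA, the change of Grhl2 minus that of the junction gene was -1.16 for Epcam, -1.19 for Cldn6, -1.25 for Cldn7, -1.48 for Cdh1 and -1.52 for Cldn3 (log2). For the junction genes whose average change was positive it was -1.94 with Ocln and -2.67 with Dsp. The same 7 comparisons for Esrp1 gave -0.92 with Epcam to -2.43 with Dsp. The estimated fall of both regulators thus exceeded that of each of these genes with a negative estimate. For Dsp and Ocln the difference sets a fall against a positive estimate. For Cldn7, whose signals lie at the array medians with and without RA, a low signal also limits the fall that can be read. These 14 comparisons reuse the same regulator signals and are not independent. Each had an exact permutation p of 0.005, adjusted to 0.006 over the 18 pairs compared. Cldn4 was the exception: the difference was -0.55 for Grhl2 (exact permutation p = 0.115) and -0.31 for Esrp1 (exact permutation p = 0.26), within the spread between arrays.

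**Figure D3:**
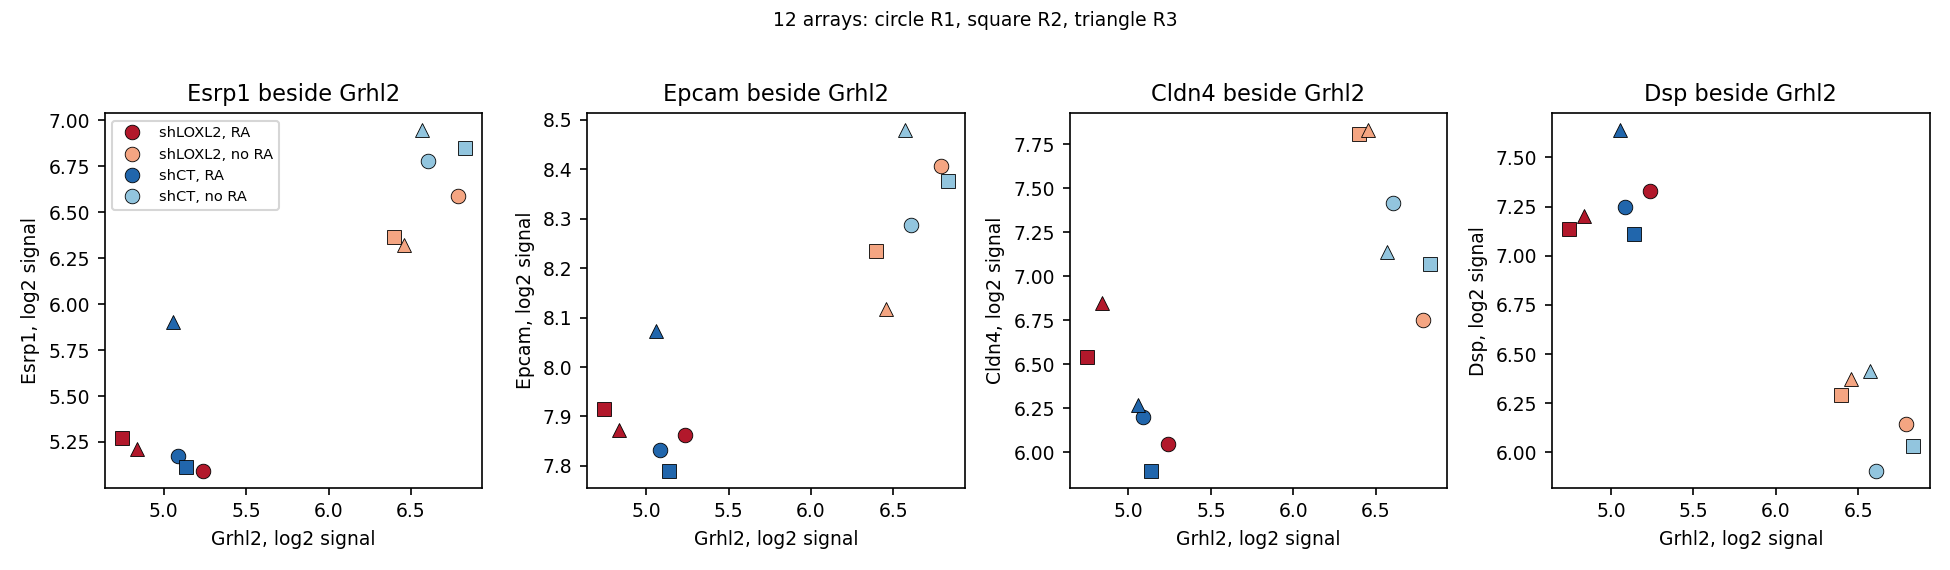
Log2 signal of Grhl2 (horizontal axes) against that of Esrp1, Epcam, Cldn4 and Dsp (vertical axes), 1 point per array and 1 colour per group. The arrays with RA and those without form separate sets along the Grhl2 axis, with Esrp1 and Epcam lower and Dsp higher in the set with RA, while the Cldn4 values of the sets overlap.

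Promoter windows from RefSeq (GRCm38.p6) were at hand for 7 of the 10 genes, the exceptions being Grhl2, Esrp1 and Cdh1, and are shown for the junction genes that passed on average, so that the 3 that fell can be read beside the one that rose. The 250 bases before each annotated start are printed 5′ to 3′ on the strand of the gene, with the E-box CAGGTG (read as CACCTG on the other strand) in capitals. That E-box is the site bound by the SNAIL and ZEB repressors of epithelial genes. The first is Cldn4, minus strand of chr5:134946935-134947184.
Cldn4: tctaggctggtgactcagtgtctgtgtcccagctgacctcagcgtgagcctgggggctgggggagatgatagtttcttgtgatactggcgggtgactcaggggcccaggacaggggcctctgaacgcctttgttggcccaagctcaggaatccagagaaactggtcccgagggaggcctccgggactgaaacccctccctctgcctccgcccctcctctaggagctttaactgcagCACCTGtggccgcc
The second is Epcam, plus strand of chr17:87635729-87635978.
Epcam: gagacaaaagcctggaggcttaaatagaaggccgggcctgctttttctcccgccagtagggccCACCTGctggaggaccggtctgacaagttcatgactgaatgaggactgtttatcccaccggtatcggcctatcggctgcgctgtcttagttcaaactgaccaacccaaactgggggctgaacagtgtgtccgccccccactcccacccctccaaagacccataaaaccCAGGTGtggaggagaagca
The third is Cldn6, plus strand of chr17:23679115-23679364.
Cldn6: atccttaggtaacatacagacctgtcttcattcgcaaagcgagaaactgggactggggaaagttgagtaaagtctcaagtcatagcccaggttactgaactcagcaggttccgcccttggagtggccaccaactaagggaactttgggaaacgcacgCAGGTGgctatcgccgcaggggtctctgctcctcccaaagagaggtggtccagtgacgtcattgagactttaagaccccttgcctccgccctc
The last is Dsp, plus strand of chr13:38151044-38151293, which has no E-box before its start and one beginning at base 4 after it.
Dsp: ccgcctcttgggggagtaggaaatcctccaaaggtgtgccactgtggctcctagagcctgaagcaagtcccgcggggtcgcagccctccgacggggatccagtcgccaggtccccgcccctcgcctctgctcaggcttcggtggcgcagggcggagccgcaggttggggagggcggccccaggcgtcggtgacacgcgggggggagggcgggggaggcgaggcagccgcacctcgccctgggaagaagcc

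In the full windows of 300 bases, which add 50 bases after the start, CAGGTG on either strand was found in 7 of the 7 junction genes and in 22.6% of 27025 genes with a window. Cldn3, which did not pass, holds it as do the genes that fell and the gene that rose, so the E-box did not separate them. The Grainyhead site AACCGGTT was in 0 of the 7 and in 0.174% of genes, and its looser form AACNNGTT in 0 of the 7 and in 4.77% of genes. The retinoic acid receptor element with a spacing of 5 bases was in 0 of the 7 and in 0.0111% of genes. A window without these letters says nothing of binding elsewhere, such as at enhancers.

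The pathway around the 10 genes was described by 11 lists of partners, with the counts for RA averaged over constructs. The background shares, of all genes and of the brighter genes, are those given above. Of 9 other epithelial transcription factors, 1 rose and 3 fell. Elf3, an ETS factor of epithelial differentiation, rose by 0.77 ± 0.18 (SE; limma adjusted p = 0.0156). Grhl3, a relative of Grhl2, changed by -0.39 ± 0.09 (limma adjusted p = 0.01484) and Klf5, a zinc-finger factor of ES cells and epithelia, by -0.39 ± 0.09 (limma adjusted p = 0.01593). The third fall, named here after its value was seen, was Grhl1 at -0.30. Of 5 repressors of epithelial genes 1 rose, Zeb1 by 0.48 ± 0.10 (limma adjusted p = 0.00881), and all 5 estimates were positive. Snai2 had an estimate of 0.55 and Snai1 one of 0.36, and neither passed (limma adjusted p = 0.1157 and 0.1014). Zeb2 shares its clusters with another gene and was not analysed here.

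Splicing regulators were measured for 9 genes, of which 0 rose and 2 fell. They were Esrp2, the paralogue of Esrp1, at -0.52 ± 0.10 (SE; limma adjusted p = 0.004432), and Rbm47, an RNA-binding protein of epithelia, at -0.38 ± 0.08 (limma adjusted p = 0.008017). Of 5 genes whose exons ESRP proteins are known to select, Fgfr2, a fibroblast growth factor receptor, rose by 1.03 ± 0.12 (limma adjusted p = 6.576e-05) and Enah, an actin regulator, changed by -0.35 ± 0.10 (limma adjusted p = 0.04592). The next estimates, Mbnl2 at 0.54 and Ctnnd1, which encodes p120-catenin, at -0.22, did not pass, although Ctnnd1 passed as a fall with arrays centred on their medians (-0.30, limma adjusted p = 0.02353). One signal per gene cannot show which exons were used.

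Among the other junction components the calls went both ways. None of 20 other claudins passed in limma, with a median change of 0.01. Cldn19 came closest (0.42 ± 0.14, limma adjusted p = 0.07886), before Cldn9 at 0.25 and Cldn1 at 0.21. The mean level of these claudins on an array lay between 4.20 and 4.46, below every array median. As for Cldn7, such low signals limit the fall that can be read. Of 17 tight junction partners 3 rose and 2 fell: Cgnl1, the scaffold paracingulin, rose by 1.20 ± 0.09 (limma adjusted p = 1.449e-06), Magi3, a membrane scaffold, rose by 0.76 ± 0.15, and Ildr1, a protein of tricellular junctions, changed by -1.33 ± 0.12 (limma adjusted p = 6.326e-06). The other 2 calls, named after their values were seen, were Pard3 at 0.39 and Crb3 at -0.39, both of apical polarity complexes. With arrays quantile-normalized again Tjp1, also named after its value was seen, passed as a rise (0.37, limma adjusted p = 0.02506). Of 11 adherens junction partners 1 passed, Cdh3, the gene of P-cadherin, at -1.20 ± 0.11 (limma adjusted p = 6.424e-06), while Nectin2 at 0.39 did not pass (limma adjusted p = 0.05855). Ctnnd1 is also on that list, so that 2 adherens partners fell with arrays centred on their medians. Of 12 desmosome partners, 2 rose and 1 fell. The desmosomal cadherin Dsc2 rose by 1.50 ± 0.12 (limma adjusted p = 2.704e-06) and the plaque protein Ppl by 0.60 ± 0.13, while Jup, plakoglobin, changed by -0.67 ± 0.11 (limma adjusted p = 0.001649). Dsp thus rose beside some of its partners and against another.

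Of 8 further genes linked to GRHL2 in epithelia 1 rose and 4 fell. Llgl2, a basolateral polarity protein, rose by 1.04 ± 0.11 (SE; limma adjusted p = 3.851e-05). Rab25, a GTPase of apical recycling, changed by -0.98 ± 0.15 (limma adjusted p = 0.0008136) and Ap1m2, an adaptor subunit for basolateral sorting, by -0.72 ± 0.10 (limma adjusted p = 0.0003154). The protease inhibitor Spint2 at -0.48 and the protease St14 at -0.42 also fell (both named once their values were known). Of 4 simple-epithelium keratins Krt18 rose by 0.44 ± 0.13 (limma adjusted p = 0.0461, and 0.08959 with arrays centred on their medians), and Krt7 (0.26) and Krt8 (0.18) did not pass. None of 7 mesenchymal genes passed, Cdh11 at 0.42, S100a4 at -0.28 and Fn1 at -0.26 having the smallest p, although S100a4 and Fn1 passed as falls with arrays centred on their medians.

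**Figure D4:**
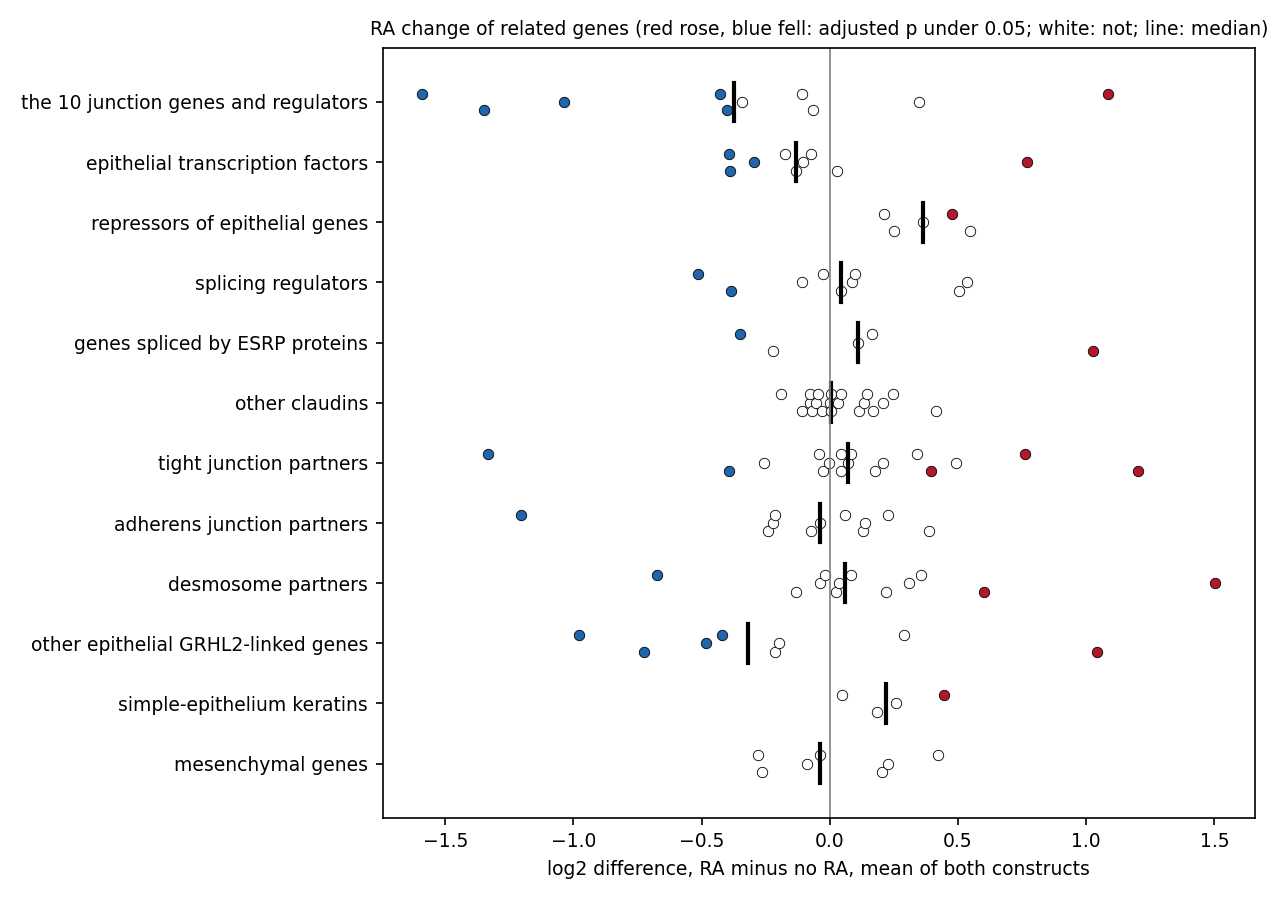
Change with RA averaged over constructs (log2, horizontal axis) for every measured gene of the 11 partner lists and of the 10 genes themselves (rows), with genes that rose in red, genes that fell in blue, the others in white and a line at each median. The called genes of the tight junction, desmosome and epithelial transcription factor lists lie on both sides of 0, and those of the splicing regulators on the lower side.

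Markers of other cell types were read beside these changes, and their part in the results was not tested. Of 5 ES cell markers 4 fell with RA on average, namely Pou5f1 (-0.56), Zfp42 (-0.51), Esrrb (-0.65) and Sox2 (-0.44, named after its value was seen), while Nanog was at 0.08. With arrays quantile-normalized again, Sox2 did not pass (-0.40, limma adjusted p = 0.05985) and 3 fell. Of 6 primitive endoderm markers 1 rose, Gata6 by 1.63 ± 0.17 (SE; limma adjusted p = 3.503e-05), and all 6 estimates were positive (5 of 6 with arrays centred on their medians), Gata4 at 0.41 and Sox17 at 0.23 among them. Their mean level was 6.40 to 6.51 in shLOXL2 cells with RA, against 5.85 to 5.98 in shLOXL2 cells without RA. In shCT cells it was 6.16 to 6.91 with RA, against 5.77 to 6.77 without RA, where replicate 1 without RA held the 6.77. Of 6 trophectoderm markers 1 rose, Cdx2 by 0.63, Gata3 at 0.49 and Eomes at 0.26 did not pass, and the mean level was 5.09 to 5.18 in shLOXL2 cells with RA, against 4.79 to 5.06 without it, and 5.08 to 5.32 in shCT cells with RA, against 4.81 to 5.03 without it. Of 7 fibroblast markers 1 rose, Pdgfrb by 1.28, Thy1 at -0.48 did not pass as deposited, and 5 of the 7 estimates were positive (2 of 7 with arrays centred on their medians). The means of that list stayed between 4.53 and 4.91 in all groups. Dcn and Postn averaged 3.54 and 3.40, below every array median. Above every array median were Pdgfrb at 5.99, Thy1 at 5.33, Col1a1 at 5.21, Col1a2 at 4.74 and Col3a1 at 4.73.

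LOXL2 is a lysyl oxidase family enzyme that has been described as acting on Snail and histone H3, and its knockdown was compared with the control in each RA state. None of the 10 genes passed in limma without RA, with RA, on average or in the difference between the RA responses. The shares of all genes that passed were 0% without RA, 0% with RA, 0.0541% on average (12 genes) and 0% for the difference, so these comparisons made few calls on any gene. At an unadjusted limma p under 0.05 there were 1, 0, 2 and 0 of the 10 genes in that order, against 4.68%, 4.96%, 6.72% and 2.94% of all genes. With arrays weighted by their quality, limma called 4 of the 10 genes without RA and 2 on average, where it called 13% and 4.52% of all genes.

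Esrp1 and Cldn6 were the 2 genes with an unadjusted p under 0.05 on average. Without RA all 3 shLOXL2 arrays of Esrp1 lay below all 3 shCT arrays, and the difference was -0.43 ± 0.18 (SE; limma adjusted p = 0.9998). With RA the arrays overlapped, at -0.20 ± 0.18. The average difference of -0.32 ± 0.13 had an exact permutation p of 0.045 and a limma adjusted p of 0.654. Cldn6 also had no overlap without RA, with a difference of -0.34 ± 0.17, and averaged -0.31 ± 0.12 (exact permutation p = 0.02; limma adjusted p = 0.598). Neither passes once all genes tested are counted.

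For the other genes the average difference between shLOXL2 and shCT cells was -0.14 ± 0.11 for Grhl2, with a 95% interval of -0.37 to 0.10. It was 0.31 ± 0.19 for Cldn4 (exact permutation p = 0.185) and between -0.07 and 0.11 for Cdh1, Epcam, Dsp, Cldn3, Cldn7 and Ocln. The second, dimmer Cdh1 cluster was higher in shLOXL2 cells by 0.21 ± 0.13 on average and by 0.46 ± 0.18 with RA. Its RA change in shLOXL2 cells minus that in shCT cells was 0.51 ± 0.26. None of these passed (limma adjusted p = 0.842, 0.9782 and 0.9999 over all 23521 clusters with 1 gene). The size of the RA response did not differ detectably between constructs for any of the 10 genes (limma adjusted p = 0.9999 for each; exact permutation p between 0.265 and 0.99). The intervals were wide: the RA change in shLOXL2 cells minus that in shCT cells was -0.03 for Grhl2 (95% interval -0.50 to 0.44), 0.23 for Esrp1 (-0.33 to 0.78), -0.26 for Dsp (-0.76 to 0.23) and 0.10 for Cldn4 (-0.71 to 0.92). Of the 11 partner lists 1 gene passed on average, Erbb3, a receptor kinase gene linked to GRHL2, which was higher in shLOXL2 cells by 0.65 ± 0.09 (limma adjusted p = 0.01666). Erbb3 did not pass with the random replicate block (limma adjusted p = 0.07879) or the fixed replicate block (0.06282). It passed in 4 of the 12 fits without 1 array, with differences of 0.61 to 0.71 and adjusted p of 0.01057 to 0.07114, and failed without any one shCT array with RA, without replicate 2 of shCT without RA, without replicate 2 or 3 of shLOXL2 with RA and without replicate 2 or 3 of shLOXL2 without RA. In the other partner lists the gene with the smallest p did not pass: Grhl3 at -0.34, Twist1 at -0.22, Rbm47 at 0.21, Fgfr2 at -0.23, Cldn14 at -0.25, Magi1 at -0.24, Vcl at 0.18, Dsg2 at 0.30, Krt19 at -0.30 and Vim at 0.31. The same held for the cell type markers, with Esrrb at 0.21, Col1a1 at -0.19, Dab2 at -0.49 and Tfap2c at -0.16.

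**Figure D5:**
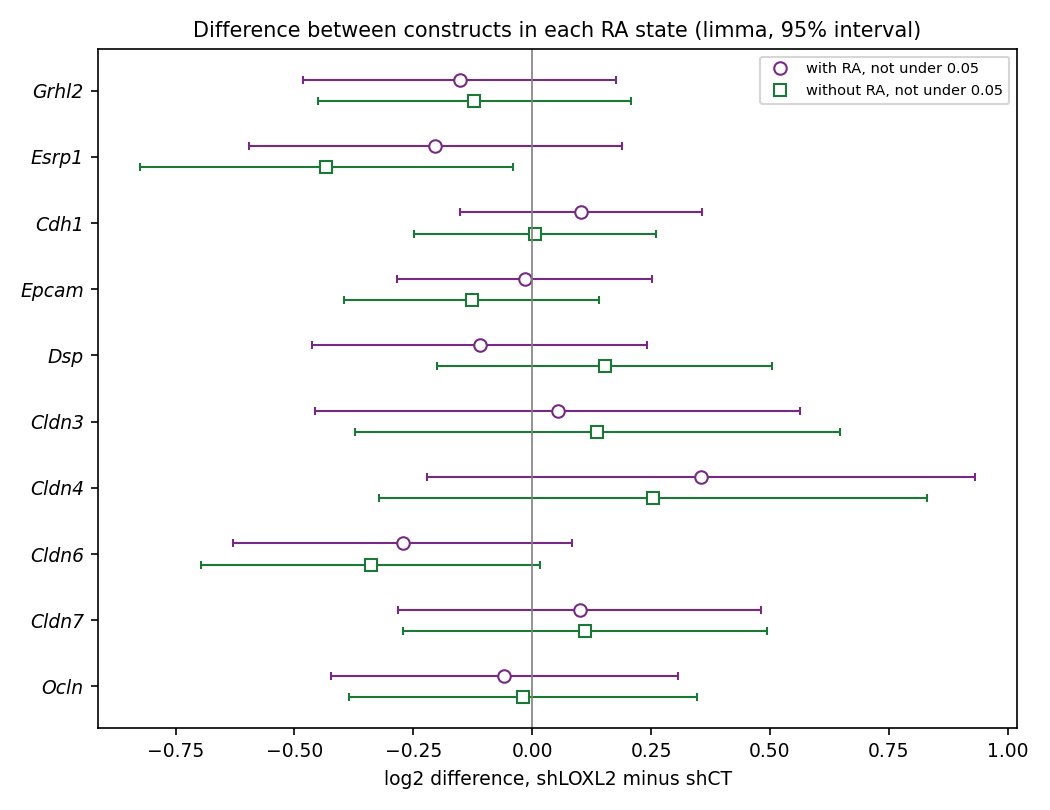
Difference between shLOXL2 and shCT cells (log2, horizontal axis) for each of the 10 genes, with RA and without RA, with 95% intervals from the limma fit. The interval of Esrp1 without RA, -0.82 to -0.04, is the one that leaves out 0, and no gene passed after adjustment over all genes.

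The genes most like Grhl2, Esrp1 and Dsp across the 12 arrays were ranked by Pearson's r among 11089 other genes brighter than the median gene. The arrays share their scaling and fall into a set with RA and one without, which sets much of any such r, so the values are a description. Closest to Grhl2 were Slc27a2 (0.99), Enox1 (0.99), 1700017J07Rik (0.99), 1700097N02Rik (0.98) and Foxd3 (0.98), a forkhead factor of ES cells. Esrp1 ranked 92 for Grhl2, at 0.93, and Dsp stood near the opposite end at -0.94. Closest to Esrp1 were Dnah8 (0.97), Epcam (0.97), Nid2 (0.97), Usp28 (0.97) and Ldb1 (0.96), so that a junction gene of the set came in at rank 2. Closest to Dsp were Pecam1 (0.98), Cidea (0.98), Acp5 (0.98), Pja2 (0.98) and Mest (0.97).

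After the group means were taken out, the deviations of single arrays tied the junction genes to the regulators differently. Over the 12 arrays Epcam (0.87), Cldn6 (0.78), Cdh1 (0.71) and Ocln (0.70) varied with Esrp1. For Cldn6 and Cdh1 this rested on replicate 3 of shCT with RA: over the 11 arrays without it the values were -0.11 for Cldn6 and -0.35 for Cdh1, while Epcam had 0.91 and Ocln 0.64. With Grhl2, Cldn7 (-0.84), Cldn4 (-0.83) and Cldn3 (-0.76) had negative values, at -0.85, -0.83 and -0.76 without that array. In both RA states replicate 1 of shLOXL2 had the highest Grhl2 signal of its group and the lowest signals of these claudins. How far the negative values rest on those arrays was not tested. Grhl2 and Esrp1 themselves had -0.07 and, without it, 0.03. With 3 arrays a group these are descriptions of these arrays, and a shared axis took up 49.4% of the variance within groups.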

How the data were processed

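Per the labels' protocols, total RNA of E14 cells went through the Affymetrix whole-transcript sense labelling. The file deposited by the authors holds a log2 value for each transcript cluster and array. Per the submitters' processing notes, the tools were RMA, limma and R 3.1.1, whose roles are not stated. Such values carry no read depth, and the number of arrays, 3 per group, limits the precision. Normalization between arrays removes shifts shared by most genes.

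Gene names came from the platform annotation, updated with RefSeq. Among 41345 clusters, 23521 had 1 gene, 1814 several and 16010 none, and the table matched 23328 of those with 1 gene. The brightest cluster stood for each of 1082 genes with several. All 12 value columns were used, with 0 left over. No genome was used. Promoter windows came from RefSeq (GRCm38.p6).

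Differences were tested with limma 3.58.1 (statmod 1.5.0, R 4.3.3) in one fit over the 12 arrays with 1 mean per group, 7 contrasts, and Benjamini-Hochberg adjustment over 22180 genes at 0.05. Errors are standard errors of the fit. The fit was tested on simulated data. Single values were tested by two-sided exact permutation of RA labels within constructs, or of constructs within RA states. Other settings were another block, scaling, filter, cluster choice, sample set, variance model or array weights, and each array left out.

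Same-numbered arrays deviated together in shLOXL2 cells (r of 0.56, 0.25 and 0.22) and not in every pair in shCT cells (0.36, 0.04 and 0.63). The labels do not say what a number marks. The shLOXL2 values were each over 0.1, but unlike-numbered shLOXL2 arrays also deviated together. Replicate 3 without RA and replicate 2 with RA had an r of 0.37. Replicate 2 without RA and replicate 3 with RA had 0.18. The correlations therefore do not settle whether same-numbered arrays are paired, and the block fits are given as alternatives.

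The 10 genes and all lists were chosen with earlier results of these data known. Beside the 10 genes, the text names up to 3 genes per list with the smallest p for RA on average, the gene with the smallest p for knockdown on average, the 5 genes most like Grhl2, Esrp1 and Dsp, and Loxl2. Genes outside this rule are marked as named after their values were seen.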

Additional observations from a re-analysis of the deposited data

How the results depend on the processing

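Grhl2, Esrp1 and Dsp kept their direction and their call for RA under every setting run, in each construct and on average. Of 1543 values of single genes under another setting, 284 called values kept direction and call, 32 lost the call and 0 changed sign, while 27 values that had not passed gained a call and 79 others that had not passed changed sign. For RA in shLOXL2 cells the count of the 10 genes was 3, and 5 with the random replicate block and 5 with array weights. For RA in shCT cells it was 5, and 7 with array weights (Cldn6 and Ocln gained), under which 23.6% of all genes passed. With 1 array left out the count in shCT cells was 3 to 5. It fell to 3 without any one array of shCT without RA, without replicate 1 or 2 of shCT with RA, or without replicate 2 of shLOXL2 with RA. For knockdown it was 0, and with array weights 4 without RA and 2 on average: Grhl2 (-0.36) and Esrp1 (-0.48) lower and Cldn3 (0.49) and Cldn4 (0.62) higher in shLOXL2 cells without RA. These weights ran from 0.332 to 6.26, the highest on replicate 2 of shCT without RA. The cause was not tested.

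With the fixed replicate block the count was 4 for RA in shCT cells (Epcam lost, limma adjusted p = 0.08645), 3 in shLOXL2 cells and 5 on average (Cldn6 lost, limma adjusted p = 0.06513). Both of the following settings were chosen after seeing the data. A block within each construct gave 8 on average (Cldn7 and Ocln gained), as did the random block and array weights, and leaving out 4 arrays high on an axis of variation within groups gave 7.

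Over all genes, RA on average gave 2289 calls, 3871 with the random block, 3677 with the block within constructs, 5975 with array weights, and 1684 to 2605 with 1 array left out. For RA in shCT cells the numbers were 943, 2047, 1800, 5224 and 483 to 1049, and for RA in shLOXL2 cells 768, 1675, 1624, 2663 and 444 to 916. With only the groups compared, RA in shCT cells gave 599. Knockdown on average gave 12 calls, and 0 to 37 under the other settings except array weights, with 1002. Array weights also gave 2875 for knockdown without RA and 9 with RA, where the count was 0. Signals near the array medians, as for Cldn7, limit what can be read as a fall.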
